A study of Homo sapiens with 4 samples.

Results

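The m6A regions centred in 3' untranslated regions (3' UTRs) of H1 cells numbered 705 of 9900 m6A regions in all (7.12%, 95% exact binomial interval 6.62 to 7.65%). They were taken as every region whose centre the deposited annotation places in a 3' UTR, and the host gene was the one that owns the transcript named there. H1 is a cell line from a human embryo that is widely used as a model of primed pluripotency, and all libraries were of wild-type genotype. RNA recovered with an m6A antibody (2 libraries) was set against input RNA (2 libraries), both from total RNA, and the deposited result is 1 intersected set of peak positions on hg38. It holds no height, score, depth or value per library. No replicate error could therefore be set beside a difference, no difference between groups of regions or genes was tested, and where no region was called m6A may still be present. Intervals here are the Clopper-Pearson kind at 95%, and they reflect counting alone.

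N6-methyladenosine (m6A) is a methyl mark that the METTL3 and METTL14 complex places on adenosines of mRNA while it is being made, mostly in long internal exons, near stop codons and in 3' UTRs. The 3' UTR is the part of an mRNA between the stop codon and the poly(A) tail, where microRNAs and RNA-binding proteins act on stability and translation. YTH proteins bound to m6A are known to promote mRNA decay, while IGF2BP proteins, the subject of the title of the series, are known to stabilise their targets. The mark sits in a short consensus named DRACH, in which the methylated A precedes a C, and GGACT is a form of it that is often methylated.

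Sequence was at hand for a small part of these regions only, where a 300-base RefSeq window around a gene start (GRCh38.p14) fell inside one. Such windows covered 2831 distinct bases of 13 regions, 2281 of them inside the host gene, and by construction each lies at the start of some gene. The motif GGACT was searched on the strand of the host gene, and 4 of the 16 windows held it, once each. Of these 16, 9 were cut by the edge of a region, and 3 of the 7 whole ones held the motif (42.9%). The site in UNC93A lay beyond the end of that gene and is not shown. Of all 35116 windows of 300 bases, 8873 (25.3%) held it on the strand of their gene. With only 7 whole windows in these regions, no difference from that share can be read. The sites in 3 host genes are shown because they are examples of the consensus inside a region called as methylated, with GGACT in capitals and the host strand written 5′ to 3′.
GNG7: tgactctgaaGGACTctgggaggtg
NDOR1: ctgatcgccaGGACTgcgttctggg
EID2B: agaaacgctgGGACT

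The GNG7 site, in a gene for a G protein gamma subunit, is at chr19:2513702-2513726 on the minus strand, 378 bp from the centre of an 852 bp region and 2495 bp from the 3' end of the gene. The NDOR1 site, in a gene for a flavoprotein reductase, is at chr9:137217308-137217332 on the plus strand, 423 bp from the centre of a 3133 bp region and 2041 bp from the 3' end. The EID2B site (chr19:39532803-39532817, minus strand) was cut at the edge of the window and lay 921 bp from the centre, near the 5′ end of a gene of a single exon. It was 1818 bp from the 3' end of this gene of 1866 bp, so it is no example of 3' UTR sequence. These are letter matches, and transcript models were not used to place each in 5' UTR, coding sequence or 3' UTR. Whether any of them carries m6A was not measured, and the rest of the regions was not searched.

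Regions in 3' UTRs were compact. Their median width was 1221 bp (quartiles 963 and 1643 bp), and 599 of 705 (85.0%, interval 82.1 to 87.5%) were up to 2 kb wide. Coding-exon regions had a median of 1350 bp (n = 1913), with 77.1% up to 2 kb (75.1 to 78.9%), and intronic regions a median of 2102 bp (n = 4967), with 47.8% up to 2 kb (46.4 to 49.2%). Over all 9900 regions the median was 1527 bp and 62.8% were up to 2 kb. Regions in 5' UTRs, 9.53 times fewer, had a median of 1127.5 bp, with 93.2% up to 2 kb. Those in non-coding exons (1249 bp, 82.7%), at promoters (1260.5 bp, 80.7%) and at transcript ends (1317 bp, 81.5%) were of similar width. A compact shape was thus not particular to 3' UTRs.

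**Figure D1:**
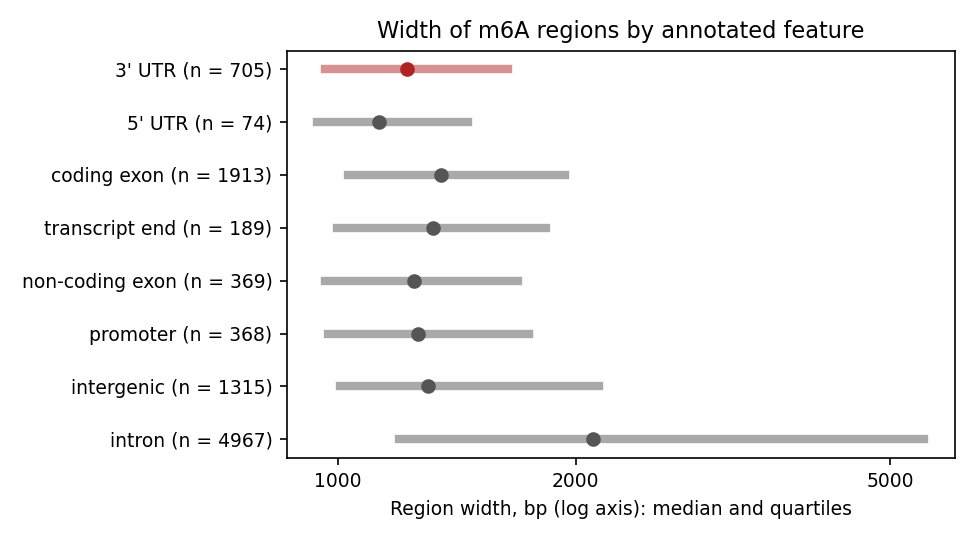
Width of m6A regions in bp (log axis) by the feature at their centre; dots are medians, bars run from the lower to the upper quartile, and n is the number of regions. The 705 regions in 3' UTRs have a median of 1221 bp, and intronic regions one of 2102 bp.

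The narrowest and widest members lay far apart. The narrowest was a 392 bp region in FRY, a gene for a large scaffold protein, in exon 61 of 61 (chromosome 13, positions 32295370 to 32295761). It was followed by HHLA1 (603 bp), EDARADD, an adaptor of the ectodysplasin receptor (609 bp), SPATA13 (646 bp) and TMEM150C (650 bp). Only 4 of the 705 were over 5 kb. The region centred in UNC93A was 120319 bp wide (chromosome 6, positions 167255321 to 167375639) and ran 59625 bp past the 3' end of a gene that is itself 46983 bp long. The region in ZNF28 was 21474 bp, and the one in LSAMP, a neuronal adhesion protein, was 11654 bp and ran 5623 bp past the 3' end. MSANTD3 held 6469 bp in exon 3 of 4, and KLHDC7A, next in width, 4807 bp in exon 1 of 1. In such wide regions the label describes the centre alone.

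The position of the centres was measured against the ends of the host genes, with the strand of each gene taken from the RefSeq table. A place near the 3' end is largely fixed by the 3' UTR label, so these values describe the regions and are no check of it. Of the 700 regions with a matched host, 569 had a strand and a usable position. Their centres lay a median of 2381 bp from the 3' end of the gene (quartiles 1176 and 4572 bp), at a median of 95.2% of the gene body counted from the 5′ end. In 534 of 569 (93.8%, interval 91.5 to 95.7%) the centre was past the midpoint of the gene body, and in 393 (69.1%) past 90% of it. Only 17 of 569 regions (2.99%) reached past the annotated 3' end, by 220 to 59625 bp. The gene end is the outermost of all transcripts of a gene, so the distance to the end of the transcript itself can be shorter.

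Regions in the last coding exon, just upstream in the mRNA, were set beside them. Within 1 kb of the 3' end were 109 of 569 centres (19.2%, interval 16.0 to 22.6%), beside 11.5% of 937 centres in last coding exons. Their medians were 2381 and 2845 bp. Centres in non-coding exons were close to the 3' UTR ones in these values, with 19.0% within 1 kb and a median of 2453 bp (n = 231). They spread farther from the end, with an upper quartile of 9717 bp against 4572 bp. Past 90% of the gene body were 40.7% of them, against 69.1% of 3' UTR centres. Centres in other coding exons had a median of 21886 bp (n = 617) and intronic ones 27866 bp (n = 3975). Very few 3' UTR centres, 15 of 569 (2.64%), were in the last 0.5 kb. The annotation has a separate label for centres close to a transcript end. It went to 189 regions, of which the 113 with a strand had a median distance of -375 bp, and 82 of these (72.6%) were centred beyond the gene end.

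**Figure D2:**
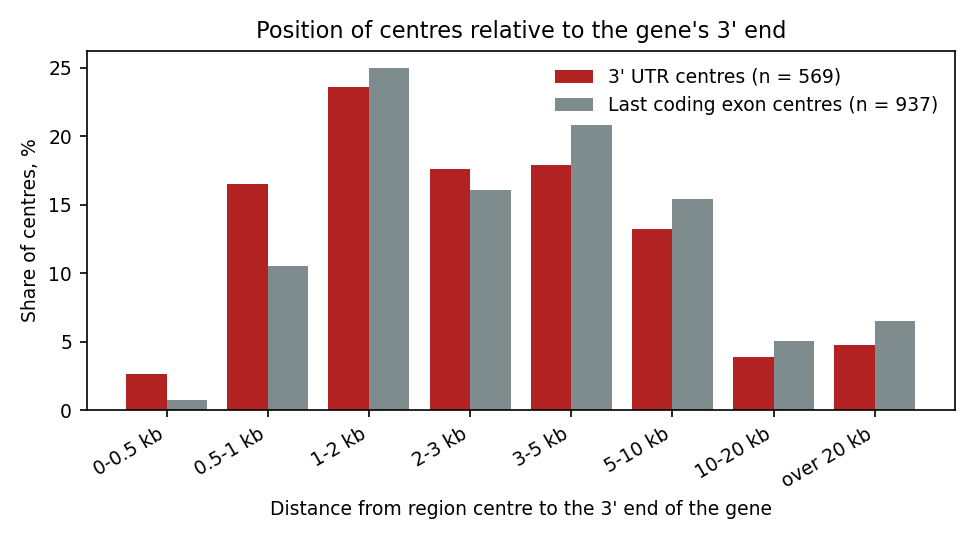
Share of region centres (%) in bins of distance to the 3' end of the host gene, for centres in 3' UTRs (n = 569) and in last coding exons (n = 937). Within 0.5 to 1 kb lie 16.5% of 3' UTR centres and 10.5% of last coding exon centres.

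A minority lay far inside the gene. In 49 of 569 cases (8.61%) the centre was 10 kb or more from the 3' end. The named transcript of a gene can end before its outermost transcript does. In the protocadherin alpha genes, neuronal adhesion genes that share their last exons, the PCDHA4 and PCDHA10 regions were centred 200339 and 149787 bp from the end, in exon 1 of 1 of a short transcript. In LARP1B, an RNA-binding protein, the region lay 115206 bp from the end, in exon 9 of 9. Among the regions farthest from either boundary of their gene were those in SHISA9 (327286 bp), LRGUK (65873 bp), TSNARE1 (59261 bp) and RGS3 (55909 bp). Of the 700 regions, 695 were in the last exon of the named transcript, a position that the 3' UTR label nearly fixes. The other 5 were in EPHA4 (exon 16 of 17), RTL5 (exon 1 of 2), MSANTD3, KCNA6 (exon 1 of 2) and ZFP41 (exon 2 of 3).

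Nearest-start naming would give most of these regions to another gene. In 409 of 700 (58.4%, interval 54.7 to 62.1%) the closest start site belonged to a gene other than the host. It was a protein-coding gene in 276 of the 409 and a non-coding RNA in 122, and for 35 regions a microRNA gene or a host of one. The region in WNT5B, a Wnt ligand, was listed under MIR3649, and the one in DGCR8, the RNA-binding partner of Drosha, under MIR6816. No region overlapped a microRNA hairpin of the RefSeq table (0 of 705, upper bound 0.522%). The centre lay in the body of a further protein-coding gene in 65 of 705 cases (9.22%, interval 7.19 to 11.6%), beside 7.11% of coding-exon centres. Some of these records join the host to a neighbour, such as POC1B-DUSP6 and ISY1-RAB43, and others are further protocadherin alpha genes. In 31 of 570 cases with a known strand (5.44%) the further gene was on the opposite strand. These 31 include the region of LOC102723996, which lay over ICOSLG and whose host has its reference position elsewhere. The files give no strand for the regions, so reads of such overlapping genes cannot be told apart.

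The 700 matched regions belonged to 682 protein-coding genes, which is 3.40% of 20056, and 8.81% held a coding-exon region. Of these hosts, 664 had 1 region in a 3' UTR, 18 had 2 and none had more. In 15 of the 18 genes both regions lay in the 3' UTR of the same transcript, with gaps of 861 to 8839 bp (median 2246 bp). In the other 3, SHISA9, RGS3 and VTI1A, they belonged to different transcripts and lay 325385, 54622 and 35960 bp apart.

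The 10 genes with most bases in 2 regions are described one by one, by distance to the gene end where the strand was known. ONECUT2, a cut homeobox transcription factor, held regions of 2511 and 1815 bp in exon 2 of 2, at 57476582 to 57479092 and 57482958 to 57484772 on chromosome 18. They were centred 13461 and 7433 bp from the gene end, so neither lay near the end. ANKRD33B held 1646 and 2424 bp, centred 5387 and 1963 bp from the end. FOXK1, a forkhead transcription factor, held 3055 and 994 bp in exon 9 of 9, centred 8671 and 4342 bp from the end.

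IGF1R, the receptor for insulin-like growth factor, held 1865 and 1219 bp in exon 21 of 21 (chromosome 15, 98956554 to 98958418 and 98961485 to 98962703), centred 7044 and 2436 bp from the end. CBFA2T2, a corepressor known in pluripotency and germ cells, held 1035 and 1529 bp, 5101 and 1162 bp from the end. GRIK3, a kainate receptor subunit, held 1554 and 938 bp, 5831 and 2339 bp from the end. SNX29, a sorting nexin, ZFP41, a zinc finger gene, and RPAP2, a phosphatase of RNA polymerase II, also held 2 each, with gaps of 1215, 8839 and 1418 bp. In ANKRD33B, SNX29, IGF1R, CBFA2T2 and GRIK3 the nearer region was within 2436 bp of the end, while in ONECUT2, FOXK1 and RPAP2 it was 4342 to 8421 bp away.

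**Figure D3:**
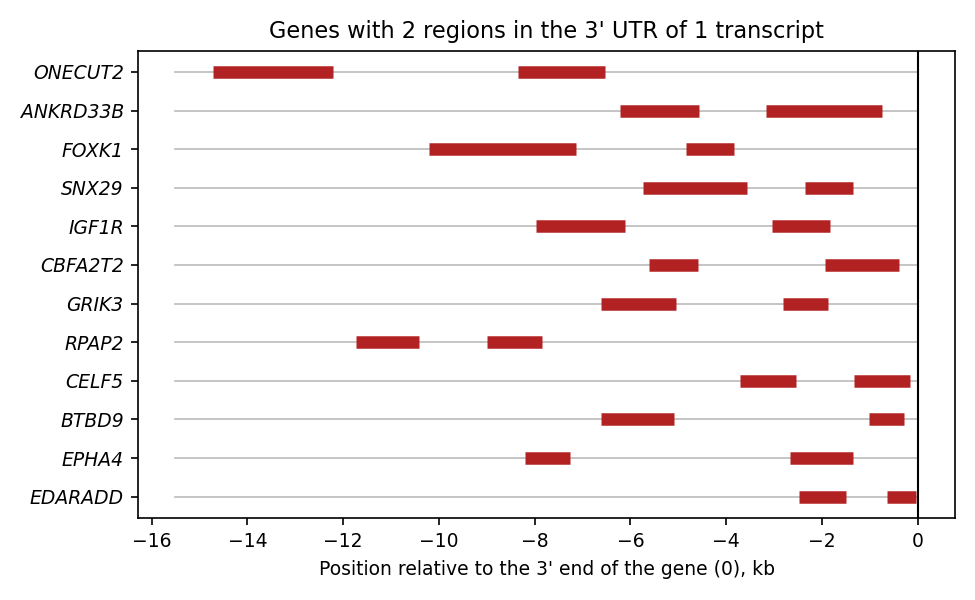
Genes with 2 regions in the 3' UTR of 1 transcript and a known strand; red bars are the regions, placed by distance in kb from the 3' end of the gene at 0. Gaps between the regions run from 861 bp in EDARADD to 4600 bp in EPHA4.

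Few hosts also held a region in their coding sequence. Of the 682 genes, 79 (11.6%, interval 9.28 to 14.2%) had a coding-exon region, beside 8.71% (8.32 to 9.12%) of the 19374 other protein-coding genes. Intronic regions were found in 184 hosts (27.0%, 23.7 to 30.5%) and in 15.5% of other genes. The median gene body of hosts was 51073.5 bp, against 24092.5 bp over all protein-coding genes, so the shares were also read within quintiles of gene body length. For introns, hosts were at 42.5% and other genes at 33.9% in quintile 5, the longest, and at 2.08 and 2.22% in quintile 1. For coding exons they were at 12.7 and 11.2% in quintile 5, at 17.8 and 9.37% in quintile 4, and at 2.27 and 7.67% in quintile 2. The coding-exon share of hosts was the lower one in quintiles 1 and 2, but on only 2 of 48 and 2 of 88 hosts. In quintiles 3 to 5 it was the higher one. The 2.08% for introns was 1 of 48 hosts, and no quintile was tested. Counting 5' UTRs and a second 3' UTR region too, 106 hosts (15.5%) held a further exonic region. The nearest region of any kind lay a median of 35941 bp away, and 122 of 705 (17.3%) had one within 5 kb, which was intronic in 52 cases, coding in 31 and in a 3' UTR in 26.

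Where both were present, the coding region lay on the 5′ side, sometimes close by. There were 86 pairs of a 3' UTR and a coding-exon region in the 79 genes, with a median gap of 13193.5 bp (quartiles 3265.5 and 38232.2 bp). In 22 pairs both lay in the same last exon, with gaps of 810 to 11992 bp (median 1499 bp). The coding region was upstream in 70 of the 72 pairs with a known strand, as the order of coding sequence and 3' UTR requires within 1 transcript. The exceptions, RGS3 and KNDC1, paired different transcripts.

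Among the hosts with most exonic regions were RGS3, a regulator of G protein signalling (2 regions in 3' UTRs, 1 in a coding exon and 4 exonic in all), PLEKHG4B, ALPK3, ONECUT2, ANKRD33B and MKI67 (3 each). MKI67, which encodes the proliferation marker Ki-67, held 1525 bp in exon 15 of 15 and 2 coding regions in exon 13, 4268 and 8422 bp away. IRS2, an adaptor of the insulin receptor, held 839 bp in exon 2 of 2, while its coding region in exon 1 was 5953 bp wide. MYO10, an unconventional myosin, held 1642 bp in exon 41 of 41 and 3732 bp in exon 23. ZNF28 held its wide region and a coding one of 3671 bp.

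The share of genes that hosted a 3' UTR region differed along gene body length. In quintile 1 (51 to 6410 bp) it was 1.20% (48 of 4012, interval 0.883 to 1.58%). In quintiles 2 to 4 it was 2.19, 3.29 and 3.64%, and in quintile 5 (83436 bp and longer) 6.68% (268 of 4011, 5.93 to 7.50%). Coding-exon regions were at 5.88% in quintile 1 and 11.3% in quintile 5. The median number of protein-coding RefSeq transcripts was 2 in hosts and 2 over all protein-coding genes. Exonic length, 3' UTR length and RNA level were not analysed here, and their part in these shares was not tested.

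**Figure D4:**
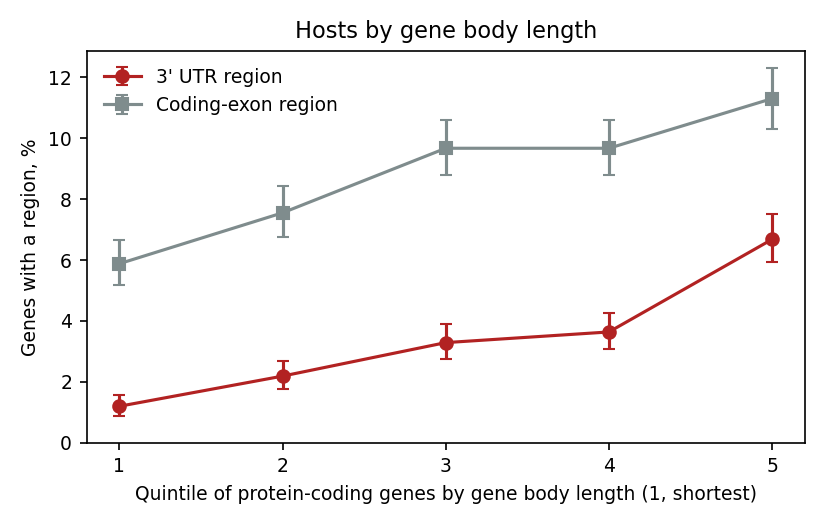
Share of protein-coding genes (%) with a 3' UTR region or a coding-exon region, by quintile of gene body length from 1 (shortest) to 5 (longest); bars are 95% exact binomial intervals. For 3' UTR regions it runs from 1.20 to 6.68%.

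None of the genes in the title of the series held a region centred in a 3' UTR. The only region over OTX2, a transcription factor that restrains germ cell fate, was 1243 bp at chromosome 14, 56800759 to 56802001, centred 1475 bp from the gene boundary on the 3' side of this minus-strand gene. Its label was exon 2 of 2 of a non-coding transcript, so the rule left it out. The distance is within the quartiles of the members, 1176 and 4572 bp. It is also within those of centres in non-coding exons, 1129.5 and 9717 bp, so it does not tell the labels apart. IGF2BP1 and TFAP2C, a germ cell transcription factor, had no region over the gene. The primordial germ cell list, ARID5B, ALPL and CXCR4 included, held 0 of 22 (upper bound 15.4%), and since all protein-coding genes are at 3.40% this count is no result about the list. KITLG, the ligand of the KIT receptor on germ cells, was on no list and held 926 bp in exon 9 of 9, 3956 bp from its end.

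Of 32 core and primed pluripotency genes, none hosted a 3' UTR region (upper bound 10.9%), CD9, CDH1 and CRIPTO included, while 11 (34.4%) hosted a coding-exon region. Over all protein-coding genes the shares were 3.40 and 8.81%. A list of 32 at the background share would hold about 1, so a count of 0 is not a result about these genes. Of 6 stem cell markers (POU5F1, NANOG, SOX2, SALL4, LIN28A and L1TD1) SOX2, SALL4 and L1TD1 held a coding-exon region and none a 3' UTR one. RNA levels were not analysed here, so the label of the cells could not be checked further.

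Genes whose products act on 3' UTRs were read next. Of 19 genes of the microRNA pathway 4 held a region (21.1%, interval 6.05 to 45.6%), beside 3.40% of all protein-coding genes. These are long genes, with a median gene body of 79828 bp against 24092.5 bp over all protein-coding genes. The 3.40% is not matched to that length, and the part of length in this share was not tested. TNRC6C, a silencing scaffold, held 2157 bp in exon 22 of 22 (chromosome 17, 78104639 to 78106795), 3118 bp from the gene end, and a coding-exon region too. AGO2, the slicing Argonaute, held 844 bp in exon 19 of 19, DGCR8 851 bp in exon 13 of 13 and DIS3L2, a nuclease of uridylated RNA, 814 bp in exon 14 of 14. AGO1, AGO3 and AGO4 held none. With regions of at least 1 kb the count was 1, and it was 0 when each region took the gene of the closest start site.

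The UTR-binding regulators held 0 of 33 (upper bound 10.6%), CELF1, CELF2 and CPEB1 included, cleavage and polyadenylation factors such as CLP1, CPSF1 and CPSF2 0 of 23 (upper bound 14.8%), and mRNA decay factors 1 of 36. That 1 was UPF1, the helicase of nonsense-mediated decay, with 1953 bp in exon 24 of 24. BTG1, BTG2 and CNOT1 held none. Of 27 genes of the m6A machinery, METTL14 alone held one, 847 bp in exon 11 of 11 (chromosome 4, 118710024 to 118710870), while 10 (37.0%) held a coding-exon region. ALKBH5, CBLL1 and ELAVL1 had no 3' UTR region. The m6A count was 0 with regions of at least 1 kb and 2 with transcript-end regions included. Beside the 3.40 and 8.81% of all protein-coding genes, 3' UTR counts of 0 or 1 in lists of this size are no result about them.

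Short-lived mRNAs and growth factor signalling had a few hosts each. Of 34 immediate early genes 4 held a region (11.8%, interval 3.30 to 27.5%): IER5 (1308 bp), JUND, an AP-1 factor (928 bp), and DUSP5 and DUSP6, phosphatases that switch off ERK (1211 and 1069 bp). ATF3, BTG2 and CCND1 held none. Of 36 FGF and MAPK genes 4 held one (11.1%, 3.11 to 26.1%), DUSP5 and DUSP6 again, FGF4, a growth factor of early embryos (1655 bp), and SOS1, an activator of RAS (1490 bp). ARAF, BRAF and DUSP4 held none. Both intervals include the 3.40% of all protein-coding genes, so neither count is a result about its list. SOCS3, a brake on cytokine signalling outside the lists, held 1089 bp, 1497 bp from its end.

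In TGF-beta, NODAL and BMP signalling 3 of 41 held one (7.32%, 1.54 to 19.9%): SMURF1, a ubiquitin ligase for SMADs (1825 bp), ACVR1B, a receptor for activin and NODAL (876 bp), and TGIF2, a SMAD corepressor (1178 bp). ACVR1, ACVR2A and ACVR2B held none in the 3' UTR, and by the closest start site the count was 1. WNT genes held 1 of 38, the WNT5B region of 1099 bp at 754 bp from the gene end, beside 13 with a coding-exon region (34.2%). APC, APC2 and AXIN1 held none in the 3' UTR. All protein-coding genes were at 3.40% for 3' UTR and 8.81% for coding-exon regions. The TGF-beta interval includes 3.40%, and a WNT count of 1 of 38 is near it.

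In 43 histone lysine methylation genes, 4 held a 3' UTR region (9.30%, 2.59 to 22.1%) and 15 a coding-exon one (34.9%). Beside these stand 3.40 and 8.81% of all protein-coding genes, and the 3' UTR interval includes the former. The 4 with a 3' UTR region were the demethylase KDM5A (2510 bp), EHMT1, which methylates H3 lysine 9 (1302 bp), NSD3 (1270 bp) and KMT5C, which methylates H4 (961 bp). DOT1L, EHMT2 and EZH1 held none in the 3' UTR. The 3' UTR count was 1 when each region took the gene of the closest start site. In NSD3 the centre was 47829 bp from the nearer gene boundary, in exon 10 of 10 of the transcript named.

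Cell cycle and p53 genes held 3 of 39 (7.69%, 1.62 to 20.9%), all under 1 kb, so that none was left with regions of at least 1 kb. E2F3, an S phase transcription factor with a coding-exon region as well, held 963 bp in exon 7 of 7, CDC25A, a phosphatase that activates CDKs, 825 bp in exon 15 of 15, and MDM2, the ubiquitin ligase of p53, 856 bp in exon 6 of 6, 8594 bp from the gene end. AURKA, AURKB and CCNA2 held none. Among 18 mRNAs reported as IGF2BP targets, MKI67 alone held one (5.56%, 0.141 to 27.3%), and ACTB, BTRC and CD44 held none. Glycolysis genes, ALDOA, ALDOC and ENO1 included, held 0 of 19 (upper bound 17.6%) and translation factors, EEF1A1, EEF1B2 and EEF1G included, 0 of 28 (upper bound 12.3%). For each of these lists the interval includes the 3.40% of all protein-coding genes, so the counts are no result about them.

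Across the 16 lists, 24 of 457 genes held a 3' UTR region (5.25%). The lower bound of the interval was above 3.40% for the microRNA pathway alone, and at 6 lists the count was 0. Lists of this size allow wide intervals, their genes differ in length from the 3.40% background, and no list was called different.

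The largest symbol families have narrower intervals. Of 517 ZNF zinc finger genes, many of them KRAB repressors of transposable elements, 40 held a 3' UTR region (7.74%, interval 5.58 to 10.4%), beside 3.40% of all protein-coding genes. Their coding-exon share was 49.9% (258 genes) beside 8.81%. Hosts in this family included ZNF28, ZNF629 (4143 bp), ZNF618 (3235 bp) and ZNF480 (3057 bp). The family is a name pattern, and it took in ZNF664-RFLNA, whose region was centred 843 bp from its end and also within RFLNA. Chromosome 19, where 250 of them lie, held 78 of the 705 regions and 5.31% of its protein-coding genes were hosts (4.21 to 6.59%). Without its ZNF genes the share there was 4.33% (52 of 1201). ZNF genes lie side by side and share sequence, so they are not independent, and the treatment of reads with several alignments is not stated.

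Solute carriers, the SLC membrane transporters, had more genes with a 3' UTR region (21 of 386, 5.44%, interval 3.40 to 8.20%) than with a coding-exon region (13, 3.37%). Among them were SLC9A3, a sodium and proton exchanger (2080 bp), SLC45A4 (1921 bp), SLC25A29 and SLC37A1. RAB GTPases, which direct vesicle traffic, showed the same order, with 5 of 63 against 1, RAB40C, RAB42, RAB30 and RAB43 included. The SLC count was 13, equal to its coding-exon hosts, when each region took the gene of the closest start site, and the RAB count was 2 with regions of at least 1 kb. Over all protein-coding genes there were 0.386 hosts of a 3' UTR region for each host of a coding-exon region, and the difference was not tested. TMEM genes held 9 of 233 (3.86%), TMEM132D, TMEM41A, TMEM63C and TMEM178B among them, and protocadherins 3 of 66 (4.55%), PCDHA10, PCDHA4 and PCDH1, against 41 with a coding-exon region. Of all protein-coding genes, 3.40% held a 3' UTR and 8.81% a coding-exon region. The intervals of RAB (2.63 to 17.6%), TMEM (1.78 to 7.21%) and protocadherin genes (0.947 to 12.7%) include 3.40%. Their 3' UTR counts are thus no result about them, and the SLC interval starts at 3.40%. With regions of at least 1 kb TMEM genes numbered 5, and with transcript-end regions included protocadherins numbered 5.

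Of 19 SOX genes, developmental transcription factors, 2 held one, SOX12 (2327 bp) and SOX8 (1249 bp). KLF genes held 2 of 18, KLF13 and KLF12, and ZBTB genes 2 of 42, ZBTB38 and ZBTB37, beside 22 with a coding-exon region. Ribosomal protein genes held 1 of 97 (1.03%, interval 0.0261 to 5.61%), RPL7L1, which only shares the name pattern. USP deubiquitinases held 1 of 77, USP2. NDUF genes of respiratory complex I held 0 of 46 (upper bound 7.71%) and HOX genes 0 of 40 (upper bound 8.81%). Median gene bodies were 5661 bp in ribosomal protein genes and 3785.5 bp in HOX genes, against 24092.5 bp over all protein-coding genes. Of all protein-coding genes, 3.40% held a 3' UTR and 8.81% a coding-exon region. The interval of each of these families includes 3.40%, so their 3' UTR counts are no result about them. The SOX count was 1 with regions up to 2 kb, and the KLF and ZBTB counts were 1 each by the closest start site. The USP count was 0 with regions of at least 1 kb and 2 with transcript-end regions included.

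**Figure D5:**
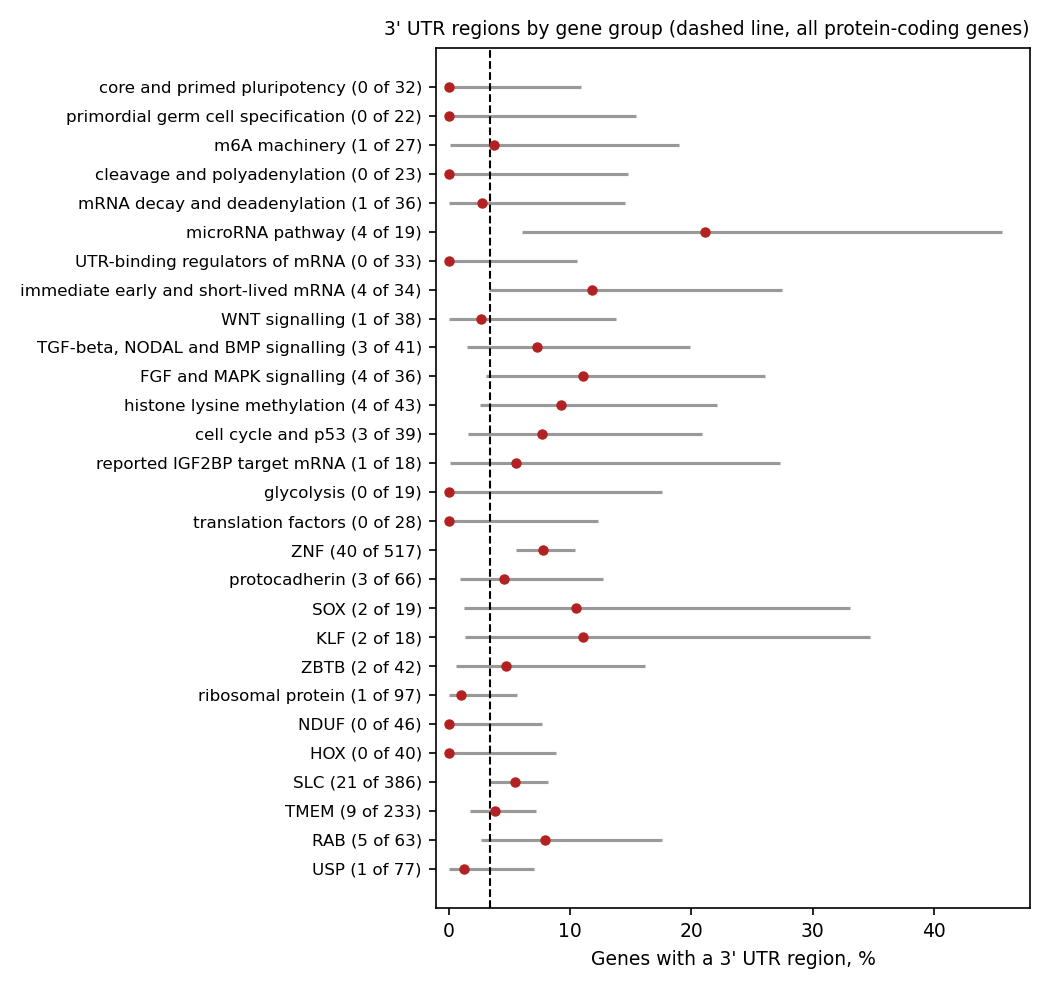
Share of genes (%) with a 3' UTR region in 16 lists and 12 symbol families, with 95% exact binomial intervals and, in brackets, the counts; the dashed line is the 3.40% of all protein-coding genes. The microRNA pathway and ZNF genes have intervals that start above that line, which is not matched to the gene body length of each group.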

How the data were processed

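The labels name 2 libraries of input RNA and 2 of m6A pull-down from wild-type H1 cells, without saying if these were separate cultures. Tools listed in the submitters' processing notes are, for trimming and alignment, Trim Galore (0.6.7) and HISAT2 (2.2.1), then SAMtools (1.6), the peak caller MACS2 (2.2.7.1), bedtools (2.30.0) and HOMER. The build is hg38, and no settings were given there or what was intersected. The authors deposited positions in base pairs and, per the file headers, a HOMER annotation of the same 9900 regions, whose label was read as that of the centre, by HOMER's convention. Depths are unknown.

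Hosts were found by matching the annotated RefSeq transcript to a gene table of GRCh38.p14 (700 of 705), and strand came from a RefSeq table of gene starts. LOC102723996 was placed elsewhere by the table and the CELSR1 centre lay outside its gene, so neither entered the positions. Counts, medians and exact intervals were computed with Python 3.11.15, pandas 2.3.3 and SciPy 1.17.1, and the position code was checked on simulated regions. No test was made over regions or genes.

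The members and lists were chosen with earlier results of these data known. Named by rule were the genes of the title, the 10 genes with most bases among those with 2 regions, hosts of the 5 widest, narrowest and most internal regions, the 10 with most exonic regions among hosts of both kinds, up to 5 members of each list with a region and 3 without (alphabetical), and up to 4 of each family. Other genes named were chosen after their values were seen. CRIPTO stood in its lists under an older symbol too and was counted once. Of the groups in the closing section, 12 were added after the hosts were seen. Not every gene named by rule is reported here.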

Additional observations from a re-analysis of the deposited data

How the results depend on the processing

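Regions in 3' UTRs were 7.12% of all regions, 9.63% with regions up to 2 kb, 6.23% with regions of at least 1 kb and 9.03% with transcript-end regions included. Their median width was 1221 bp, and by construction 1120 bp and 1433 bp under those width limits. The median distance to the 3' end was 2381 bp, and 2042 bp with transcript-end regions included. Hosts with a further exonic region were 15.5%, and 11.9% with regions of at least 1 kb. Listed genes with a region numbered 24, and 14 with regions of at least 1 kb and 13 where the nearest start site named the gene. The number of host genes ran from 487 to 808 (682), all within 1.5 times. Of 140 values for single lists and families 20 moved by more than that, 9 of them under the nearest start site. Taking strand also from the distance to the start site, chosen after seeing the data, left the median at 2381 bp. Repeat labels were absent at these centres under each setting (0 of 705), as for exonic labels in general, since the annotation gives each centre 1 label. The DRACH test over whole regions and its alternative were not run, as they need a genome. No paired analysis was possible because the 4 libraries were deposited as 1 set of regions with no value per library, and for the same reason no replicate could be left out.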

Other observations

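Several groups of hosts were seen only after the gene names were read, so their shares are descriptions that the choice itself raised. Carbohydrate sulfotransferases, which build sulfated sugar chains of the cell surface, held 3' UTR regions in 5 of 15 genes (CHST10, CHST15, CHST3, CHST6 and CHST12), and 8 of 15 held a coding-exon region. Sialyltransferases held them in 5 of 20 (ST8SIA2, ST3GAL1, ST3GAL2, ST3GAL5 and ST6GAL1) with 1 coding-exon host, and GALNT genes, which start mucin-type O-glycans, in 3 of 18. Axon guidance families were also represented, with ephrin receptors at 3 of 14 (EPHA4, EPHB2 and EPHB1), plexins at 3 of 9 (PLXNA4, PLXNA1 and PLXND1), semaphorins at 3 of 20 (SEMA4D, SEMA3A and SEMA5A) and ephrins at 1 of 9. EPHA4 held 2 regions, of 1303 and 937 bp. No ephrin receptor held a coding-exon region (0 of 14, beside 8.81% of all protein-coding genes), which is no result about so small a family.

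The path from insulin and IGF receptors to mTOR had 6 of 26 genes with a 3' UTR region, namely the receptors IGF1R and INSR, the adaptor IRS2, the PI3-kinase subunit PIK3R1, the mTOR brake TSC1 and the GTPase RRAGC, and 5 of 26 had a coding-exon region. The INSR region was 2084 bp in exon 22 of 22, 4076 bp from the gene end, and the TSC1 region 2079 bp in exon 23 of 23, 1190 bp from it. In the BCL2 family of apoptosis regulators 4 of 16 held one, the survival factor BCL2 (1749 bp, 4611 bp from the end) and the death-promoting BMF (2410 bp), BOK (879 bp) and BBC3 (850 bp). Forkhead genes held 6 of 52, KCTD genes 3 of 21 and adrenergic receptors 3 of 9. All of these were chosen after the hosts were known, so the 3.40% of all protein-coding genes is no fair comparison for them. Their coding-exon counts are descriptions too. Outside any group, UHRF1, a reader of hemimethylated DNA, held 998 bp at 820 bp from its end, and VEGFA, a growth factor of blood vessels, 2025 bp in exon 5 of 5.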
